A study of Homo sapiens with 12 samples.

Results

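The genes described are those that the deposited annotation places on human chromosome 11 and that averaged at least 5 CPM (reads scaled to the library size) over the 12 libraries. There were 630 such genes among the 3285 listed on the chromosome, and among 11689 genes at that level over the whole genome. Of the 630, 615 were protein-coding and 15 belonged to other classes. The chromosome was chosen by its measured log2 ratios: with EXT1 knocked down, its genes stood higher than in wild-type cells when the cells were attached, and lower when they were in suspension. The values of that shift are therefore given as a description, without a test. What was tested is whether the shift was even along the chromosome and which of its genes departed from it.

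The cells were HEK293, a human embryonic kidney line used to make proteins and viral vectors. EXT1 knockdown cells in adherent culture, wild-type cells in adherent culture, EXT1 knockdown cells in suspension and wild-type cells in suspension gave 3 libraries each of poly-A selected RNA. Attached cells grew in flasks in DMEM with FBS and were trypsinized, while suspension cells grew in the serum-free medium EX-CELL 293 at 120 rpm, both at 37 °C and 5% CO2 and both collected after 5 passages. The method of the knockdown, its clonality and the origin of the replicates (separate cultures or not) are not in the labels. The p-values therefore reflect the spread among libraries within groups, which the main fits pool over the 4 groups. This spread may be purely technical. The cultures differ in medium, serum, shaking and harvest together, and these cannot be told apart.

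Chromosome 11 is a gene-rich human chromosome that carries EXT2, the partner with which EXT1 forms the enzyme complex that lengthens heparan sulfate chains. It also carries the imprinted cluster at the tip of its short arm, the nuclear long non-coding RNAs MALAT1 and NEAT1, the fatty acid desaturases and the histone methyltransferase KMT2A. HEK293 is known for a rearranged set of chromosomes. A gene's RNA level was compared here with the other genes of its chromosome, so that a gene could move with the chromosome, run ahead of it, or go the other way.

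The 250 bases before the RefSeq transcript start of 4 of the genes are shown, because these genes stand for the patterns below: EXT2 moved with the chromosome and slightly beyond it, PLEKHB1 was higher than the chromosome in both cultures, MALAT1 was higher than it in suspension by a call that rested on 1 library, and PGR had the largest fall below it. They were chosen after their values were seen, and are read on the gene's own strand from RefSeq promoters on GRCh38.p14. Capitals mark the GC box GGGCGG or its reverse complement CCGCCC, and the TATA box TATAAA or its reverse complement TTTATA.
EXT2, plus strand, chr11:44095428-44095677: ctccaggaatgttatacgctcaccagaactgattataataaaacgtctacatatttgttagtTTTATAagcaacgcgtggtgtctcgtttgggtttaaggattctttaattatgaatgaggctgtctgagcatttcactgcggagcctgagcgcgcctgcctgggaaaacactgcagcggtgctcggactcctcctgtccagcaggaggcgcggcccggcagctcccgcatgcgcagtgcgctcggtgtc
PLEKHB1, plus strand, chr11:73646331-73646580: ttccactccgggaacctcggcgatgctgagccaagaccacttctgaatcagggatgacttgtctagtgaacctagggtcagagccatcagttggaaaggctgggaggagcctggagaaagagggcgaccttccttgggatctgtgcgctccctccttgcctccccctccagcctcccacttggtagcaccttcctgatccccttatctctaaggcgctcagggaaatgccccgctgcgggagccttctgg
MALAT1, plus strand, chr11:65497488-65497737: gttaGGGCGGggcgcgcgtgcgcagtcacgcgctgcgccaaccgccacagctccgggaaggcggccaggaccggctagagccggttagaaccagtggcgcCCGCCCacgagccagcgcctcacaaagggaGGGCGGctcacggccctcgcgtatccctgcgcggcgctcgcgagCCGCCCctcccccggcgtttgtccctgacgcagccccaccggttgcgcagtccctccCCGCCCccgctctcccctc
PGR, minus strand, chr11:101129814-101130063: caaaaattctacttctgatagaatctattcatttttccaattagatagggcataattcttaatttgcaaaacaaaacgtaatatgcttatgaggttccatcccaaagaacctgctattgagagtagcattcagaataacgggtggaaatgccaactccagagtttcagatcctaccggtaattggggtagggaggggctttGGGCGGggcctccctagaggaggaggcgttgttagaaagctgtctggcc
These RefSeq starts lie 129 bases (EXT2), 403 bases (PLEKHB1), 50 bases (MALAT1) and 711 bases (PGR) inside the gene spans used for the counts, so the PLEKHB1 and PGR windows lie wholly within those spans and the EXT2 and MALAT1 windows partly. The EXT2 window held 1 TATA box and no GC box, that of PLEKHB1 neither, that of MALAT1 5 GC boxes, and that of PGR 1 GC box. Of 506 of the 630 genes with a window, 69.6% held a GC box and 2.96% a TATA box. Over all 34943 windows, which include genes that these cells do not use, the shares were 42.5% and 10.8%. A match is a run of letters and was not tested as a site.

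Libraries held 13.9 to 21.4 M reads assigned to genes, of which 3.53% to 4.56% fell in the 630 genes. EXT1 itself, on chromosome 8, was at 12.5, 12 and 11.9 CPM in the adherent knockdown libraries, against 53.2, 53.1 and 51.8 CPM in the adherent wild type. In suspension it was at 15.4, 13.1 and 15.3 CPM with the knockdown, against 49.5, 54.6 and 47.9 CPM in the wild type, so the labels and the EXT1 level matched in all 12 libraries. The HEK293 markers were detected in every group (7 of 7), with summed levels of 537 to 546 CPM against 435 to 514 CPM in adherent cells and of 546 to 613 CPM against 642 to 667 CPM in suspension, knockdown before wild type. Of the leukocyte and hepatocyte markers, 0 of 5 and 0 of 4 averaged 1 CPM. Of the epithelial markers, 5 of 6 did (KRT5 did not), and their sum was 555 to 566 CPM in adherent knockdown cells against 366 to 437 CPM in adherent wild type, and 388 to 443 CPM in suspension knockdown cells against 468 to 516 CPM in suspension wild type. Of the fibroblast markers, 3 of 5 did (COL1A2 and DCN did not), at a sum of 29.1 to 32.9 CPM against 16.5 to 21.1 CPM in adherent cells and 28.8 to 31.5 CPM against 28.8 to 31.0 CPM in suspension. The epithelial and HEK293 sums moved in the same direction as chromosome 11 in both cultures without overlap, and the fibroblast sum did so in adherent cells; their part in the shift was not tested. In bulk RNA, fewer cells of a kind and less RNA per cell cannot be told apart.

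In each library the level of the chromosome was taken as the median over the 630 genes of their log2 CPM relative to each gene's mean over the 12 libraries. It was 0.20, 0.21 and 0.20 in the adherent knockdown libraries, against -0.07, -0.12 and -0.06 in the adherent wild type. In suspension it was -0.19, -0.17 and -0.16 in the knockdown libraries, against 0.06, 0.04 and 0.06 in the wild type. The groups did not overlap in either culture, and knockdown cells held the highest levels when attached and the lowest in suspension. The spread within groups was small beside this: the SD over 3 libraries was 0.0033 and 0.034 for adherent knockdown and adherent wild type, and 0.011 for each suspension group.

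**Figure D1:**
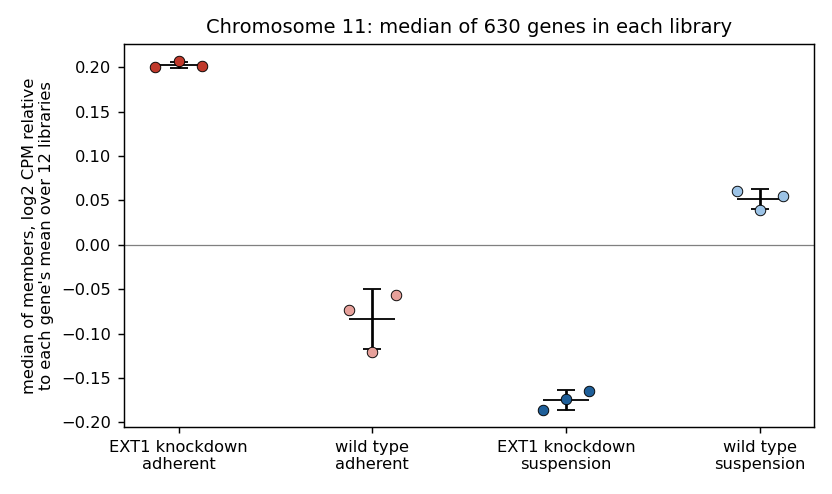
Level of chromosome 11 in each of the 12 libraries (points), as the median over 630 genes of log2 CPM relative to each gene's mean over all libraries; horizontal bars are group means and error bars the SD of 3 libraries. The adherent knockdown libraries lie at 0.20 to 0.21, above the adherent wild type, and the suspension knockdown libraries at -0.19 to -0.16, below the suspension wild type.

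The log2 ratio of knockdown over wild type, from the edgeR fit of all genes, had a median over the 630 genes of 0.29 in adherent cells (1.22-fold higher) and of -0.23 in suspension (1.17-fold lower). Over the 11689 genes the medians were 0.01 and -0.01. The ratio was above 0 for 566 genes (89.8%) in adherent cells, where 51.5% of all genes were above 0. It was below 0 for 552 (87.6%) in suspension, against 51.3% of all genes. Both held for 495 genes, or 78.6%, against 25.9% of all genes. Another 71 genes were above 0 in both cultures, 57 were below 0 in both, and 7 were below 0 in adherent cells and above 0 in suspension. These shares describe how the chromosome was chosen and support nothing further.

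The adherent knockdown and wild-type libraries did not overlap for 384 genes that were higher with the knockdown and for 13 that were lower, where 20.2% and 16% of the 17115 genes tested did so. In suspension 12 genes were higher without overlap and 401 lower, where the shares of all genes tested were 20% and 23.8%. Past an adjusted p of 0.05, 335 genes were higher and 8 lower in adherent knockdown cells, with 15.2% and 11.8% of all genes tested called. In suspension 2 were higher (MPZL2 and FAM111B) and 250 lower, with 8.29% and 12.6% of all genes called. In either direction these were 54.4% and 40.0% of the 630 genes, where 27.1% and 20.9% of all genes were called, and nothing is read from this because the chromosome was chosen on it. All 630 genes had passed the filter on low counts. Nearest to the level at which genes were taken in were FOSL1 and PGR inside it, at means of 5.01 and 5.17 CPM, with ratios of -0.55 and 0.48 in adherent cells and -0.56 and -3.19 in suspension. Just outside it, at 4.81 and 4.83 CPM, ZBTB3 and TIRAP had ratios of 0.55 and 0.52 in adherent cells and -0.23 and -0.13 in suspension.

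**Figure D2:**
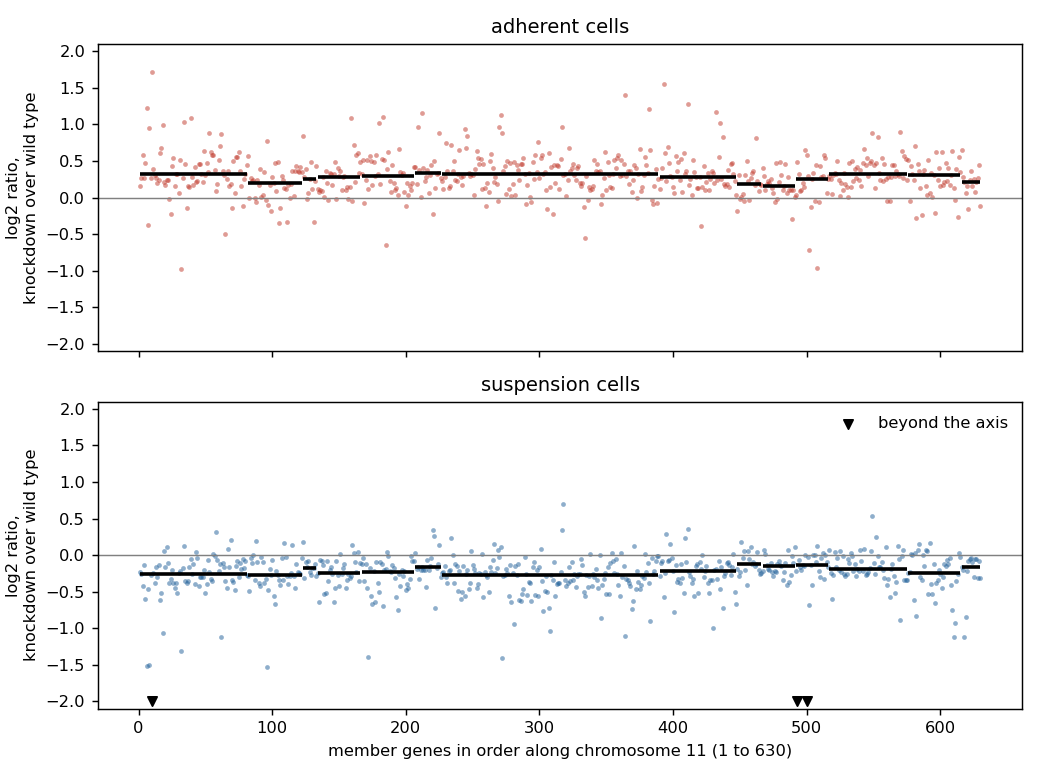
Log2 ratio of knockdown over wild type for the 630 genes (points) in their order along chromosome 11, in adherent cells above and suspension cells below; thick black lines are the medians of 10 Mb windows and black triangles mark 3 genes (PKP3, PGR and PDGFD) below the axis in suspension. The window medians lie between 0.16 and 0.33 in adherent cells and between -0.28 and -0.12 in suspension.

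Chromosome 11 had the highest median of 23 chromosomes in adherent cells, just above chromosome 9 at 0.28. In suspension its median was lower than that of all but 2 chromosomes, chromosome 14 at -0.36 and chromosome 22 at -0.29. The difference between the cultures, suspension minus adherent, had a median over genes of -0.50 on chromosome 11, the lowest of the 23 chromosomes, followed by chromosome 14 at -0.38 and chromosome 22 at -0.35. Chromosome 9, whose 481 genes stood as high in adherent cells, was also higher in suspension (0.30), so 6.44% of its genes were above 0 in adherent and below 0 in suspension cells. On chromosome 14 that share was 52.1% of 390 genes, with a median of 0.01 in adherent cells. The signs of the medians, above 0 in adherent and below 0 in suspension cells, were thus not particular to chromosome 11. Chromosomes 13 (0.17 and -0.10), 17 (0.12 and -0.12) and 22 (0.06 and -0.29) shared them, with shares of 53.3%, 51.0% and 57.0%. So did chromosomes 18 (0.20 and -0.02) and 8 (0.16 and -0.02), with shares of 41.4% and 31.9%. Seen within a line, chromosome 11 genes had a median suspension over adherent ratio of -0.37 in knockdown cells and of 0.13 in wild-type cells, against -0.07 for all genes in each line.

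**Figure D3:**
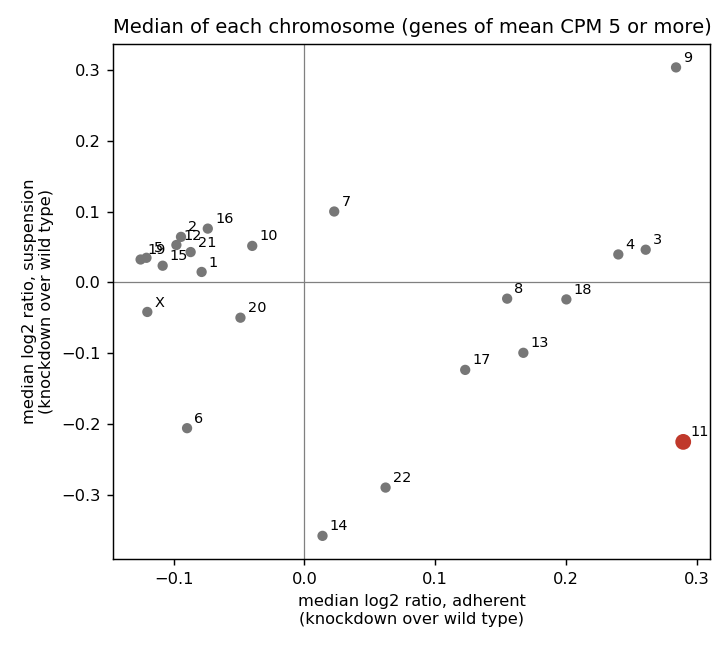
Median log2 ratio of knockdown over wild type for each of 23 chromosomes, adherent on the horizontal and suspension on the vertical axis, over genes of mean CPM 5 or more; chromosome 11 is the large red point. Chromosome 11 lies at 0.29 and -0.23, farther to the lower right than the other 22, while chromosome 9 is high in both cultures and chromosomes 14 and 22 are low in suspension.

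Along the chromosome the shift had the same sign in each of the 14 windows of 10 Mb, which held 11 to 163 genes. The window median was between 0.16 (90 to 100 Mb, 25 genes) and 0.33 (50 to 60 Mb, 20 genes) in adherent cells. In suspension it was between -0.28 (10 to 20 Mb, 41 genes) and -0.12 (80 to 90 Mb, 19 genes). To test evenness, the chromosome median was taken off each window in each library and all 297 windows of the genome were fitted together with limma. No window of chromosome 11 passed an adjusted p of 0.05 in adherent cells (4 at an unadjusted p under 0.05, lowest adjusted p 0.112), where 8.42% of all windows did. None passed in suspension either (2 at an unadjusted p under 0.05, lowest adjusted p 0.174), where 3.37% of all windows did. Left out in turn, the library adherent wild type 3 changed this: without it 3 windows passed in adherent cells and 1 in suspension. Departures of the 14 windows had an SD of 0.074 in adherent cells and 0.055 in suspension, against 0.075 and 0.064 over all 297 windows.

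The test of the difference between cultures called 1 window, from 80 to 90 Mb, where 5.39% of all windows were called. Its departure was 0.27 higher in suspension than in adherent cells (SE 0.068, adjusted p = 0.0368), which means that the opposite shifts were smaller there. Relative to the chromosome it lay at -0.04, -0.11 and -0.09 in adherent knockdown libraries against 0.08, 0.13 and -0.05 in the adherent wild type, and at 0.07, 0.17 and 0.04 in suspension knockdown libraries against -0.12, -0.04 and 0.02 in the suspension wild type. The adherent groups overlapped and the suspension groups did not. The next windows, 90 to 100 Mb and 100 to 110 Mb, had differences of 0.21 (SE 0.094, adjusted p = 0.226) and 0.23 (SE 0.081, adjusted p = 0.139). Leaving out each library in turn gave differences of 0.19 to 0.32, all above 0. The call was kept without adherent wild type 3 (adjusted p = 0.00101), suspension wild type 3 (0.031) or suspension knockdown 3 (0.0447), and lost without adherent wild type 1 (adjusted p = 0.0868) or 2 (0.0728), adherent knockdown 1 (0.0882), 2 (0.113) or 3 (0.119), suspension wild type 1 (0.111) or 2 (0.124), or suspension knockdown 1 (0.0742) or 2 (0.115). Restricted to genes of mean CPM 20 or more it fell to 0.084 (adjusted p = 0.502).

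**Figure D4:**
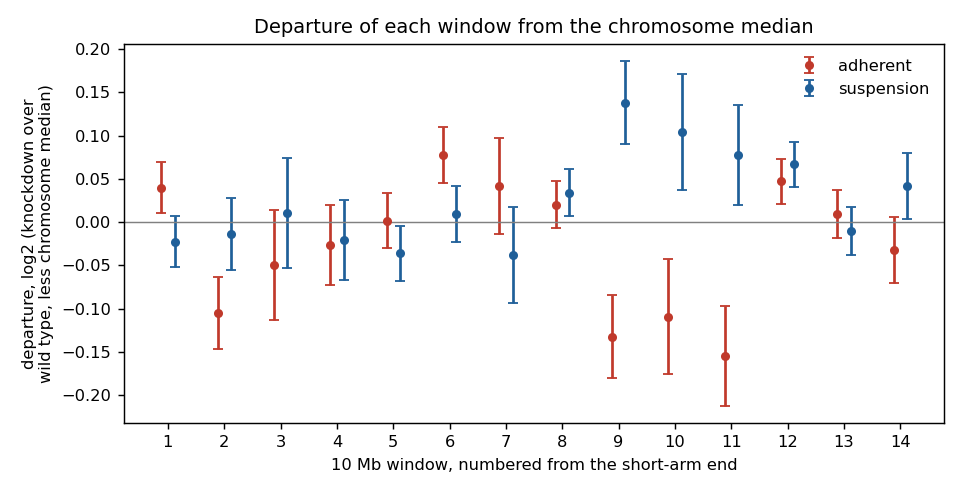
Departure of each of 14 windows of 10 Mb from the median of chromosome 11, as log2 ratio of knockdown over wild type less the chromosome's, in adherent (red) and suspension cells (blue); points are fitted values and bars are 1 SE from limma. Windows 9 to 11 lie below 0 in adherent cells and above 0 in suspension, and window 9 (80 to 90 Mb) is the one whose difference between cultures passed the test.

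The largest gap between neighbouring gene starts, 9.32 Mb from 47980558 to 57299638, was used to split the short arm (206 genes) from the long arm (424 genes). The short-arm shift minus the long-arm shift was -0.00039 in adherent cells (pooled SD 0.035, exact two-sided permutation p = 1) and -0.026 in suspension (pooled SD 0.016, exact permutation p = 0.3). With 3 libraries against 3 the smallest p is 0.1, so this design cannot pass 0.05. The 210 genes with the highest CPM (at least 52.1) had a smaller median shift than the 210 with the lowest (at most 21.3). The shifts were 0.24 and 0.36 in adherent cells (difference -0.13, pooled SD 0.046) and -0.20 and -0.29 in suspension (difference 0.087, pooled SD 0.022). In both cultures the libraries did not overlap and the exact permutation p was 0.1, adjusted to 0.2 over the family of 6 tests. Over the pooled genes of the other chromosomes the same split gave differences of -0.033 and 0.037. The median shifts of those chromosomes had both signs. They ran from -0.13 (chromosome 19) to 0.28 (chromosome 9) in adherent cells, and from -0.36 (chromosome 14) to 0.30 (chromosome 9) in suspension. A smaller shift in genes of high CPM could therefore cancel in the pool. Whether the difference by CPM was particular to chromosome 11 was not tested. For the 210 longest minus the 210 shortest genes the difference was -0.011 in adherent cells (exact p = 0.9) and 0.12 in suspension (exact p = 0.1, adjusted 0.2), against 0.074 and 0.10 on the other chromosomes. Departures of neighbouring genes were weakly related: across the 629 adjacent pairs Pearson's r was 0.078 in adherent cells and 0.068 in suspension, against 0.068 and 0.093 over all chromosomes, as a description of genes that share libraries.

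To find the genes that departed from the chromosome, the model of all 17115 genes was fitted again with each library's chromosome median taken off, so that a departure is the log2 ratio left after that. In adherent cells 75 of the 630 genes (11.9%) departed upward and 60 (9.52%) downward, where 9.51% and 9.09% of all genes did. In suspension 38 (6.03%) departed upward and 54 (8.57%) downward, where 6.05% and 7.83% of all genes did. The departures differed between the cultures for 94 genes, 37 upward (5.87%) and 57 downward (9.05%) in suspension relative to adherent, where 6.88% and 8.37% of all genes did. These shares lay near the background, and 495 of the genes in adherent cells and 538 in suspension did not pass the test. The counts moved by more than 1.5 times when single libraries were left out: upward in adherent cells to 49 and 45 without adherent knockdown 1 or 3, downward in suspension to 35 without suspension wild type 2, and upward in suspension to 61 without adherent wild type 2, to 17, 12 and 16 without suspension wild type 1, 2 or 3, and to 13 and 22 without suspension knockdown 1 or 2. For the difference between cultures they moved to 71 upward and 95 downward without adherent wild type 3, to 24 and 23 upward without adherent knockdown 1 or 3, to 22 and 21 upward without suspension wild type 1 or 3, and to 37 downward without suspension wild type 2.

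In 14 genes the departure had the direction of the chromosome's own shift in both cultures, so that these genes ran ahead of it each time. The share of all genes tested with such a pattern was not computed, so the count is not read as a trait of chromosome 11. PKP3 (ENSG00000184363, plus strand, 392614 to 404908), which encodes a plakophilin of the desmosomal plaque, was the most extreme. It was at 31.8, 30.1 and 28.6 CPM in adherent knockdown cells, against 9.28, 7.32 and 10.9 CPM in adherent wild type. In suspension PKP3 was at 3.05, 3.28 and 3.93 CPM with the knockdown, against 22, 23.8 and 21.8 CPM in wild type. The knockdown was thus 3.27-fold higher when attached and 6.54-fold lower in suspension, with no overlap, and PKP3 departed by 1.43 (SE 0.12, adjusted p = 1.57e-07) and -2.48 (SE 0.14, adjusted p = 9.36e-10).

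SSH3, a slingshot phosphatase of the cofilin pathway, had 12, 12.6 and 12.7 CPM in adherent knockdown cells against 4.19, 4.09 and 5.76 CPM in wild type. In suspension it had 7.94, 9 and 7.97 CPM against 18.5, 17.4 and 17.4 CPM, and it departed by 1.11 (SE 0.13) and -0.87 (SE 0.12). SPON1, which encodes the secreted matrix protein spondin 1, had 20.5, 20.1 and 17.1 CPM against 10.6, 12.3 and 10.8 CPM in adherent cells. In suspension it had 12.2, 12.7 and 12.8 CPM with the knockdown against 37.8, 37.6 and 33.2 CPM, and it departed by 0.48 (SE 0.11) and -1.30 (SE 0.10). ATL3, a GTPase that shapes the endoplasmic reticulum, departed by 0.60 (SE 0.15, adjusted p = 0.0105) and -1.18 (SE 0.17, adjusted p = 0.000174), and its adherent call was lost without adherent wild type 1 (0.46, adjusted p = 0.0573). Knockdown and wild type were separated in all 12 libraries for SSH3 and SPON1.

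The interferon-induced membrane proteins IFITM2 and IFITM3, which restrict the entry of many viruses, lie near the end of the short arm with IFITM1 between them, and both departed upward in adherent cells and downward in suspension. IFITM3 (minus strand, 319669 to 327537) had 7.66, 6.07 and 5.93 CPM in adherent knockdown cells against 3.28, 2.50 and 4.27 CPM in wild type. In suspension it had 4.82, 4.14 and 4.26 CPM with the knockdown against 12.1, 14.2 and 11.1 CPM. The groups did not overlap in either culture, and IFITM3 departed by 0.68 (SE 0.18, adjusted p = 0.0146) and -1.28 (SE 0.17, adjusted p = 7.66e-05). The adherent call was lost without adherent wild type 2 (0.52, adjusted p = 0.051) or adherent knockdown 1 (0.54, adjusted p = 0.0934). IFITM2 departed by 0.94 (SE 0.21, adjusted p = 0.00417) and -1.29 (SE 0.21, adjusted p = 0.000499). IFITM1, of the same family, departed downward in adherent cells (-0.66, SE 0.18, adjusted p = 0.017), a call lost without adherent wild type 1 (adjusted p = 0.0902) or adherent knockdown 2 (adjusted p = 0.0743), and its departure in suspension was -0.24 (SE 0.15, adjusted p = 0.318). The 3 genes belong to 1 family and the deposited spans of IFITM1 and IFITM2 overlap on the same strand, so that reads may be split between them.

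**Figure D5:**
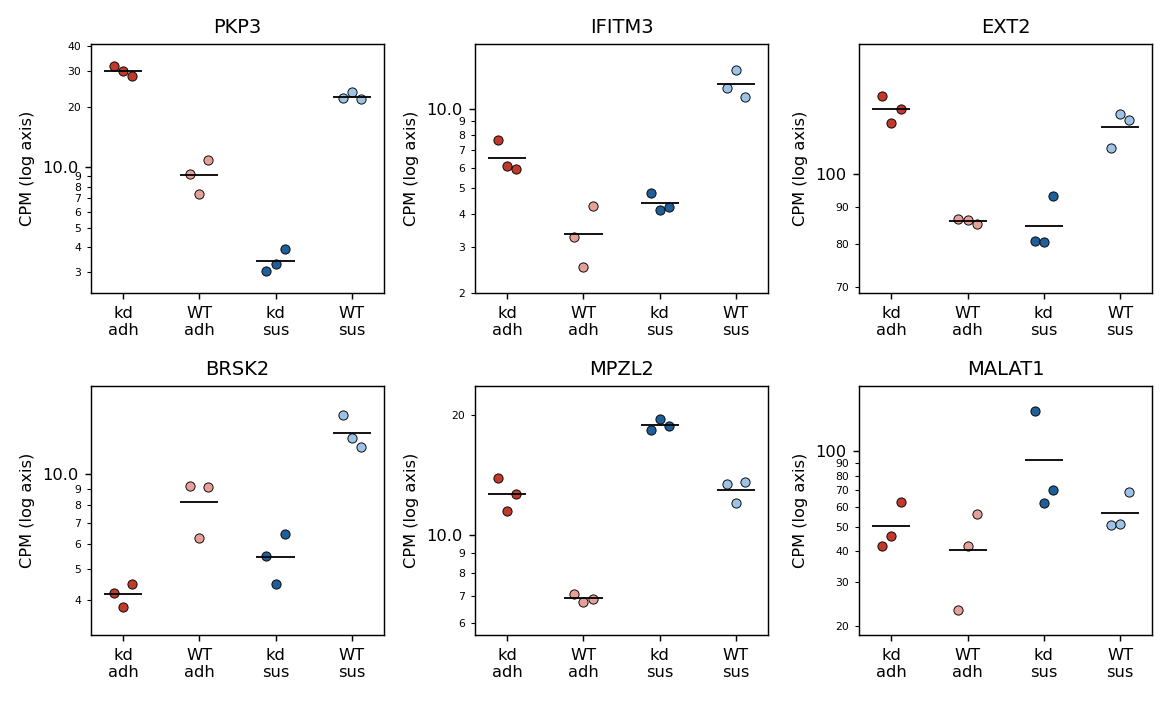
CPM of 6 chromosome 11 genes in each library (points, log axes that differ between panels), with group means as bars; kd is EXT1 knockdown, WT wild type, adh adherent and sus suspension. PKP3, IFITM3 and EXT2 are higher with the knockdown in adherent cells and lower in suspension, BRSK2 is lower in both, MPZL2 is higher in both, and the suspension difference of MALAT1 rests on 1 knockdown library at 145 CPM.

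EXT2 (ENSG00000151348, plus strand, 44095549 to 44245429), the partner of EXT1 in the heparan sulfate polymerase, moved with the chromosome. It averaged 123 ± 5.29 CPM in adherent knockdown cells and 86.1 ± 0.634 CPM in adherent wild type, and 84.9 ± 7.19 CPM in suspension knockdown cells and 116 ± 6.43 CPM in suspension wild type (SD, n = 3 each). The groups did not overlap in either culture, with 1.42-fold higher and 1.36-fold lower levels. Beyond the chromosome's shift, EXT2 departed by 0.22 (SE 0.069, adjusted p = 0.0305) in adherent cells and by -0.22 (SE 0.070, adjusted p = 0.0425) in suspension. Both calls were lost without single libraries, in adherent cells without wild type 1 (0.0707) or 3 (0.0542) or knockdown 1 (0.134) or 3 (0.0815), and in suspension without suspension wild type 2 (0.195) or 3 (0.137), suspension knockdown 1 (0.153) or 2 (0.169), or adherent knockdown 1 (0.056) or 3 (0.0596), each value being an adjusted p. The adherent call was also lost in a fit of the 6 adherent libraries (0.0769), and the suspension call under DESeq2 (0.0539), with no filter on low counts (0.0579) and with a trimmed chromosome mean (0.0564). The other genes listed for heparan sulfate and its linker did not pass: B3GAT3, the glucuronyltransferase that completes the linker, departed by 0.26 and -0.17, and its relative B3GAT1 by -0.40 and -0.09. FIBP, which binds fibroblast growth factor 1, departed by -0.09 and 0.09, and CHST1 was under the CPM minimum.

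GAL, SHANK2 and WNT11 departed upward in adherent cells with no call in suspension, and for each the difference between the cultures passed its own test. GAL, the precursor of the neuropeptide galanin, was at 70.2, 81.3 and 67.8 CPM in adherent knockdown cells against 34.2, 26.6 and 33.7 CPM in wild type, a departure of 0.93 (SE 0.10, adjusted p = 2.42e-06). In suspension GAL was at 17.6, 21.1 and 21.8 CPM against 27.5, 26 and 25.6 CPM, a departure of -0.16 (SE 0.10, adjusted p = 0.33), and the departures differed by -1.09 (SE 0.14, adjusted p = 3.89e-05). The knockdown libraries of GAL were all above the wild type when attached and all below it in suspension. SHANK2, a scaffold of the postsynaptic density, was at 9.85, 7.60 and 8.38 CPM in adherent knockdown cells against 2.49, 3.52 and 2.83 CPM, a departure of 1.26 (SE 0.20), and the difference, suspension minus adherent, was -1.61 (SE 0.26). WNT11, a secreted Wnt ligand, departed by 0.89 (SE 0.17) from 4.38, 4.46 and 3.82 CPM against 1.70, 1.59 and 2.26 CPM. UBE2L6, the conjugating enzyme for the ubiquitin-like protein ISG15, departed by 0.88 (SE 0.20, adjusted p = 0.00577) on 122 reads in all in adherent knockdown libraries against 62 in adherent wild type. That call was lost in a fit of the 6 adherent libraries (0.0511). Its difference between cultures (-0.81, SE 0.24, adjusted p = 0.0283) was lost in 9 of the 12 fits that left out a library (adjusted p 0.0522 to 0.0813), and also under limma-voom (0.057), with no filter (0.0519) and with the replicate block (0.0521).

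Downward in adherent cells, the largest departures were those of RAB39A and BRSK2, at -1.25 each (SE 0.22 and 0.17). RAB39A, a small GTPase of endosomes, was at 1.5, 2.92 and 2.45 CPM in adherent knockdown cells against 3.22, 5.11 and 4.90 CPM in wild type, and at 8.48, 8.51 and 7.29 CPM in suspension knockdown cells against 7.51, 7.38 and 7.39 CPM. Its suspension groups overlapped, and its departures differed by 1.60 (SE 0.29, adjusted p = 0.00102). FOSL1, a subunit of the AP-1 transcription factor, departed by -0.83 (SE 0.19, adjusted p = 0.00518), with 1.56, 2.19 and 1.82 CPM in adherent knockdown cells against 3.03, 2.38 and 2.69 CPM. SYT9, a synaptotagmin, departed by -0.78 (SE 0.086, adjusted p = 5.54e-06), and MAML2, a coactivator of Notch signalling, by -0.58 (SE 0.14, adjusted p = 0.00618). KCNJ11, the pore subunit of a potassium channel gated by ATP, departed by -0.61 (SE 0.16, adjusted p = 0.0109), a call that was lost without adherent wild type 3 (-0.39, adjusted p = 0.0625).

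In suspension the largest departures were falls, and those of PGR and PDGFD left few reads. PGR (ENSG00000082175, minus strand, 101029624 to 101130524), the progesterone receptor, was at 0.814, 1.03 and 0.561 CPM in suspension knockdown cells against 9.02, 6.20 and 6.70 CPM in suspension wild type, or 39 reads in all against 364. In adherent cells it was at 6.80, 7.38 and 7.81 CPM against 4.79, 6.70 and 4.27 CPM. Low levels were thus limited to the 3 suspension knockdown libraries, with departures of -2.96 (SE 0.26, adjusted p = 6.76e-07) in suspension and 0.19 (SE 0.20, adjusted p = 0.54) in adherent cells. PDGFD, a growth factor of the platelet-derived family that lies in the same 100 to 110 Mb window, was at 0.475, 0.426 and 0.280 CPM in suspension knockdown cells against 3.53, 3.51 and 3.18 CPM, on 19 reads in all against 169. It was at 15.2, 14.6 and 13.5 CPM in adherent knockdown cells against 10.9, 8.91 and 9.12 CPM. PDGFD departed by -2.89 (SE 0.24, adjusted p = 3.71e-07) in suspension and by 0.30 (SE 0.13, adjusted p = 0.111) in adherent cells. ALX4, a homeobox transcription factor, was at 3.66, 4.14 and 3.93 CPM against 11.8, 10.1 and 9.05 CPM in suspension, a departure of -1.17 (SE 0.15, adjusted p = 4.3e-05).

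In both cultures alike, 12 genes departed upward and 9 downward. Each of these departures had the sign of the chromosome's shift in one culture and the opposite sign in the other. An opposite sign can also mean that a gene moved less than the chromosome. The share of all genes tested with such departures was not computed. MPZL2 (ENSG00000149573, minus strand, 118253403 to 118264536), an adhesion protein of the immunoglobulin superfamily, was at 13.9, 11.5 and 12.7 CPM in adherent knockdown cells against 7.10, 6.76 and 6.87 CPM in wild type. In suspension MPZL2 was at 18.4, 19.5 and 18.8 CPM against 13.4, 12 and 13.5 CPM. The knockdown was higher without overlap in both cultures, where most of the chromosome was lower in suspension, and MPZL2 departed by 0.59 (SE 0.11, adjusted p = 0.000979) and 0.77 (SE 0.10, adjusted p = 6.93e-05). HTATIP2 departed by 0.56 (SE 0.090, adjusted p = 0.000294) and 0.41 (SE 0.082, adjusted p = 0.00284). STX3, a syntaxin of the plasma membrane, departed by 0.60 (SE 0.069, adjusted p = 8.94e-06) and 0.37 (SE 0.071, adjusted p = 0.00203).

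The gene PLEKHB1, for a protein with a pleckstrin homology domain, was at 12, 8.85 and 9.01 CPM in adherent knockdown cells against 3.46, 3.69 and 5.14 CPM, and at 7.60, 6.75 and 7.69 CPM in suspension knockdown cells against 5.6, 6.67 and 4.91 CPM. It departed by 0.99 (SE 0.18, adjusted p = 0.000668) and 0.58 (SE 0.17, adjusted p = 0.0346). The suspension call was lost without suspension wild type 1 (0.107) or 3 (0.137) or suspension knockdown 1 (0.0929), 2 (0.054) or 3 (0.0911), each an adjusted p. CYB561A3, a cytochrome b561 that overlaps TKFC and TMEM138 on the other strand, departed by 0.44 (SE 0.13, adjusted p = 0.022) and 0.46 (SE 0.14, adjusted p = 0.0416). Its calls were lost in adherent cells without wild type 2 (0.0695) or knockdown 1 (0.11) or 3 (0.0606), and in suspension without wild type 1 (0.0622), 2 (0.103) or 3 (0.153), knockdown 1 (0.204) or adherent knockdown 3 (0.0526).

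BRSK2 (ENSG00000174672, plus strand, 1389899 to 1462689), a kinase related to AMPK that acts in neuronal polarity, was lower in both cultures. It was at 4.21, 3.8 and 4.50 CPM in adherent knockdown cells against 9.16, 6.30 and 9.12 CPM, and at 5.50, 4.50 and 6.45 CPM in suspension knockdown cells against 15.5, 13.1 and 12.2 CPM. Without overlap in either culture, BRSK2 was 1.96-fold and 2.47-fold lower, and in suspension departed by -1.08 (SE 0.16, adjusted p = 0.000223). AASDHPPT, the transferase that attaches phosphopantetheine to carrier proteins, was at 65.2, 62.7 and 58.5 CPM against 103, 115 and 89.2 CPM in adherent cells and at 68.4, 73.6 and 65.3 CPM against 114, 107 and 113 CPM in suspension. It departed by -1.01 (SE 0.089, adjusted p = 3.88e-07) and -0.46 (SE 0.088, adjusted p = 0.00195), and KBTBD3 overlaps it on the other strand. UBASH3B, a tyrosine phosphatase, departed by -0.57 (SE 0.10) and -0.60 (SE 0.088). PKNOX2, a TALE homeobox factor, departed by -0.50 and -0.43 (adjusted p = 0.012 and 0.0329). The adherent call of PKNOX2 was lost without knockdown 1 (0.0663), and the suspension call without suspension wild type 1 (0.108) or 3 (0.136) or suspension knockdown 1 (0.101), 2 (0.0569) or 3 (0.0968).

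Another 5 genes departed downward in adherent cells and upward in suspension, opposite in sign to the chromosome's shift each time. Such a departure can also mean that a gene moved less than the chromosome. The share of all genes tested with this pattern was not computed. CCND1, cyclin D1, was at 152, 157 and 148 CPM in adherent knockdown cells against 156, 164 and 162 CPM, and at 93.9, 93.7 and 99.1 CPM in suspension knockdown cells against 98.8, 94.9 and 95.1 CPM. Its log2 ratios were -0.08 and -0.01, and its departures -0.36 (SE 0.056, adjusted p = 0.000208) and 0.22 (SE 0.058, adjusted p = 0.0188). The suspension call of CCND1 was lost without suspension wild type 2 (0.0731) or 3 (0.08) or suspension knockdown 3 (0.0694). FAM111B, a protease of the FAM111 pair, departed by -0.51 (SE 0.11, adjusted p = 0.0038) and 0.57 (SE 0.11, adjusted p = 0.00184), with 61.6, 65.4 and 62.1 CPM in suspension knockdown cells against 49.3, 49.99 and 49.6 CPM. Its neighbour FAM111A had a departure of 0.49 in suspension (SE 0.15, adjusted p = 0.0388), which did not pass without suspension wild type 1 (0.113), 2 (0.0828) or 3 (0.118) or suspension knockdown 1 (0.209) or 2 (0.0543).

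Upward departures in suspension with no call in adherent cells included those of the histone methyltransferase KMT2A and the receptor RELT. KMT2A was at 189, 138 and 139 CPM in suspension knockdown cells against 136, 126 and 129 CPM, a departure of 0.48 (SE 0.12, adjusted p = 0.011) that was lost without suspension wild type 2 (0.0502) or suspension knockdown 1 (0.0698). RELT departed by 0.46 (SE 0.14, adjusted p = 0.041) and did not pass without any one of the suspension libraries (adjusted p 0.0625 to 0.152) and without adherent knockdown 3 (0.0521). MALAT1 was at 145, 62.3 and 70.3 CPM in suspension knockdown cells against 50.6, 51.3 and 69.0 CPM, so that 1 library was high and the groups overlapped. Its departure of 0.93 (SE 0.28, adjusted p = 0.034) fell to 0.44 (adjusted p = 0.273) without suspension knockdown 1, and was lost without suspension wild type 1 (0.123) or 2 (0.123). The call was also lost under DESeq2 (adjusted p = 0.111) and limma-voom (0.0541). NEAT1, which builds nuclear paraspeckles, was at 99, 107 and 127 CPM in adherent knockdown cells against 44.7, 66.2 and 60.4 CPM, and at 96.2, 55.2 and 57.3 CPM in suspension knockdown cells against 61.4, 45.4 and 57.1 CPM. It departed by 0.67 (SE 0.18, adjusted p = 0.013), lost without adherent wild type 1 (0.0733) or adherent knockdown 3 (0.0717). In suspension it departed by 0.57 (SE 0.18, adjusted p = 0.0429), which fell to 0.27 (adjusted p = 0.302) without suspension knockdown 1 and was lost without suspension wild type 1 (0.0622), 2 (0.184) or 3 (0.0915) or adherent knockdown 1 (0.0501) or 2 (0.0557). The suspension call of NEAT1 was also lost under DESeq2 (adjusted p = 0.11), under limma-voom (0.0644) and with a filter at mean CPM 5 (0.0521).

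Gene lists were read by the same departures, for which 9.51% of all genes tested were called upward and 9.09% downward in adherent cells, and 6.05% upward and 7.83% downward in suspension. The lists held 149 of 165 symbols among the 630 genes, with 13 under the CPM minimum and 3 (IGF2, H19 and THY1) not tested. Of 6 cytosolic ribosomal protein genes, 5 departed downward and 0 upward in adherent cells (median departure -0.43), and 1 downward and 0 upward in suspension (median -0.14), where 9.09% and 7.83% of all genes were called downward and the median over all genes was -0.0024 and 0.0038. RPL27A, RPLP2 and FAU departed in adherent cells by -0.43 (SE 0.092), -0.50 (SE 0.13) and -0.51 (SE 0.12). The adherent wild-type libraries differed among themselves in these genes: RPLP2 was at 297, 292 and 298 CPM in knockdown libraries, which lay within the 314, 255 and 463 CPM of the wild type. They differed on other chromosomes too, most on chromosome 19. Its level ran from -0.035 to 0.22 in adherent wild type and from -0.013 to 0.00022 in adherent knockdown libraries. This spread limits all adherent comparisons. RPS3 was at 1086, 1317 and 1093 CPM in adherent knockdown cells against 1086, 917 and 1262 CPM, and at 976, 1127 and 1189 CPM in suspension knockdown cells against 1530.1, 1612 and 1591 CPM. Its departure in suspension was -0.30 (SE 0.095, adjusted p = 0.045), lost without any of suspension wild type 1 (0.0783), 2 (0.149) or 3 (0.116), suspension knockdown 1 (0.188) or 2 (0.0905), adherent wild type 1 (0.0541) and adherent knockdown 1 (0.057) or 3 (0.0531). Ribosomal protein genes have many pseudogenes, so that their counts are uncertain.

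Of 11 oxidative phosphorylation and mitochondrial import genes, 0 departed in either culture, with edgeR log2 ratios that were all above 0 in adherent cells (0.0038 to 0.46) and all below 0 in suspension (-0.64 to -0.14). COX8A, a subunit of cytochrome oxidase, departed by -0.26 and -0.42 (adjusted p = 0.293 and 0.0967). Of 12 ubiquitin and proteasome genes, 1 departed upward (UBE2L6) and 2 downward in adherent cells, and 0 in suspension, with a median departure of -0.04 and 0.08. The downward ones were PSMA1, a subunit of the 20S proteasome (-0.47, SE 0.085, adjusted p = 0.000811), and CUL5, a cullin scaffold (-0.34, SE 0.078, adjusted p = 0.00483).

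Lipid and sterol genes had 4 of 13 members departing upward and 2 downward in adherent cells, and 0 upward and 3 downward in suspension (median departure 0.07 and -0.07), where all genes had 9.51% and 9.09% in adherent cells and 6.05% and 7.83% in suspension. FADS2, the delta-6 fatty acid desaturase, was at 112, 111 and 114 CPM in adherent knockdown cells against 53.3, 56.3 and 65.3 CPM. In suspension FADS2 was at 133, 139 and 139 CPM against 200.1, 206 and 200.1 CPM, with no overlap in either culture, and it departed by 0.65 (SE 0.066, adjusted p = 2.09e-06) and -0.33 (SE 0.064, adjusted p = 0.00205); FADS1 overlaps it on the other strand. FADS3 departed upward in adherent cells (0.56, SE 0.13, adjusted p = 0.00655). TM7SF2, a sterol reductase of cholesterol synthesis, was at 14.2, 13.6 and 15.7 CPM in suspension knockdown cells against 28.0, 30.7 and 30.7 CPM, a departure of -0.81 (SE 0.15, adjusted p = 0.00128).

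Among adhesion and matrix genes, 3 of 18 departed upward and 2 downward in adherent cells, and 1 each way in suspension (median departure 0.08 and -0.05). MDK, the heparin-binding growth factor midkine, was at 39.5, 45.0 and 42.4 CPM in adherent knockdown cells against 18.3, 16.1 and 24.6 CPM, and at 74.4, 85.3 and 90.9 CPM in suspension knockdown cells against 132, 141 and 132 CPM. It departed by 0.81 (SE 0.11, adjusted p = 6.67e-05) and -0.47 (SE 0.10, adjusted p = 0.0047), and the groups did not overlap. CD44, the hyaluronan receptor, departed by 0.80 (SE 0.21, adjusted p = 0.011) in adherent cells, a call lost without adherent knockdown 1 (0.68, adjusted p = 0.0677). FJX1, a secreted regulator of planar polarity, departed by 0.44 (SE 0.11, adjusted p = 0.00772). Endosome, lysosome and vesicle genes had 3 of 23 upward and 1 downward in adherent cells and 2 upward and 1 downward in suspension (median departure -0.0058 and 0.0081). Among them TPP1, a lysosomal peptidase, departed by 0.42 (SE 0.094, adjusted p = 0.00417) in adherent cells. VPS51, a tether of the Golgi, departed by 0.32 (SE 0.094, adjusted p = 0.0219) in adherent cells and -0.50 (SE 0.099, adjusted p = 0.00274) in suspension. The adherent call of VPS51 was lost without adherent wild type 2 (0.0642) or adherent knockdown 1 (0.0593), 2 (0.0643) or 3 (0.051).

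Of 19 DNA replication and repair genes, 0 departed upward and 2 downward in adherent cells and 1 upward and 2 downward in suspension (median departure 0.0040 and 0.0070), where all genes had 9.51% and 9.09% in adherent cells and 6.05% and 7.83% in suspension. Both adherent calls depended on single libraries. MRE11, a nuclease of double-strand break repair, departed by -0.31 (SE 0.10, adjusted p = 0.0345), lost without adherent wild type 2 (-0.17, adjusted p = 0.148), adherent knockdown 1 (0.0734), 2 (0.0835) or 3 (0.116), or suspension wild type 3 (0.0509). DDB2 departed by -0.25 in adherent cells (adjusted p = 0.0467), lost without adherent wild type 1 (0.171), adherent knockdown 1 (0.203), 2 (0.0751) or 3 (0.0656), suspension wild type 1 (0.0659), 2 (0.0642) or 3 (0.066), or suspension knockdown 2 (0.0561) or 3 (0.0543), and it was 0.033 without taking off the chromosome medians. This call was also lost under limma-voom (0.0615), with no filter (0.117), with the replicate block (0.0739) and in a fit of the 6 adherent libraries (0.149). DDB2, which recognizes ultraviolet damage, was at 35.8, 32.4 and 33.2 CPM in suspension knockdown cells against 56.9, 54.0 and 59.5 CPM, a departure of -0.52 (SE 0.079, adjusted p = 0.000278). Of 16 growth and survival genes, 1 departed upward and 3 downward in adherent cells, FOSL1, CCND1 and the RAS relative RRAS2 (-0.38, SE 0.092), and 1 upward and 0 downward in suspension (median departure 0.0021 and -0.0013). Of 23 RNA processing and translation genes, 1 departed upward and 4 downward in adherent cells and 4 upward and 1 downward in suspension (median departure -0.09 and 0.12). HNRNPUL2, a nuclear ribonucleoprotein, departed by -0.40 (SE 0.085, adjusted p = 0.003) in adherent cells. Of the imprinted region at 11p15, 4 of 10 listed genes were above the CPM minimum, and 1 departed upward in adherent cells (median departure -0.06) and 0 in suspension (median 0.09). That was PHLDA2, which restrains growth of the placenta in mice (0.81, SE 0.24, adjusted p = 0.0266), on 281 reads in adherent knockdown libraries against 149 in wild type, a call lost without adherent wild type 2 (0.0879) or adherent knockdown 2 (0.0793) or 3 (0.0749). TSSC4 departed by -0.13 and 0.07 and CARS, the cysteine tRNA ligase, by -0.11 and 0.10, and neither passed.

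Of the 6 genes with the highest CPM, 3 (RPS3, HSPA8 and EIF4G2) had no call in adherent cells and 3 (LDHA, RPL27A and APLP2) departed. Of all genes tested, 18.6% were called there in either direction. These 6 genes were picked for high CPM, at which smaller departures can be called, so the count is not read as a result. HSPA8, the constitutive HSC70 chaperone, was at 1434, 1392 and 1318 CPM in adherent knockdown cells against 1102, 1134 and 1000.2 CPM, and at 777, 842 and 867 CPM in suspension knockdown cells against 704, 764 and 763 CPM. It was higher without overlap in both cultures, and departed by 0.07 (SE 0.071, adjusted p = 0.548) and 0.38 (SE 0.071, adjusted p = 0.0016). EIF4G2, a translation factor, departed by -0.06 and 0.12 (adjusted p = 0.681 and 0.373). LDHA, lactate dehydrogenase A, departed by -0.27 (SE 0.077, adjusted p = 0.0194) in adherent cells, lost without adherent wild type 1 (0.0594) or 2 (0.0578) or adherent knockdown 3 (0.111), and by -0.06 in suspension. APLP2, a relative of the amyloid precursor, was at 730.2, 746 and 714 CPM in adherent knockdown cells against 462, 475 and 458 CPM, a departure of 0.36 (SE 0.059, adjusted p = 0.0003).

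Within the 80 to 90 Mb window, PCF11, a factor of transcript 3' end processing, departed by -0.34 (SE 0.084, adjusted p = 0.00889) in adherent cells and by 0.29 (SE 0.084, adjusted p = 0.0295) in suspension. It was at 63.2, 61.6 and 63.8 CPM in adherent knockdown cells against 61.2, 72.3 and 61.7 CPM and at 76.7, 70.1 and 65.0 CPM in suspension knockdown cells against 70.4, 67.5 and 65.0 CPM, so its levels overlapped. Its suspension call was lost without suspension wild type 1 (0.0617), 2 (0.0841) or 3 (0.118) or suspension knockdown 1 (0.142) or 2 (0.0671). The small GTPase RAB30 departed by 0.40 (SE 0.13, adjusted p = 0.0408) in suspension, lost without suspension wild type 1 (0.153) or 2 (0.14), suspension knockdown 1 (0.089), 2 (0.0903) or 3 (0.092) or adherent knockdown 3 (0.0507). PRSS23, a secreted serine protease that overlaps FZD4 on the other strand, went the other way, with 133, 127 and 125 CPM in adherent knockdown cells against 80.02, 67.7 and 71.0 CPM and a departure of 0.53 (SE 0.069, adjusted p = 3.54e-05). The ribosomal pseudogene RPS28P7 departed by -0.47 (SE 0.11, adjusted p = 0.00408) in adherent cells, and RAB30-AS1 by -0.23 and 0.19 with no call.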

How the data were processed

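Poly-A RNA of 12 libraries in 4 groups of 3 was read from 2 tables. One, deposited by the authors, gives unnormalized counts for each gene. The submitters' processing notes name HISAT2 without a version, featureCounts 1.5.0 and the build GRCh38. The other deposited table gives FPKM values by the authors, and no test used it. Sources used here give neither annotation release nor strand setting: a gene and one that overlaps it or runs antisense may share reads. Totals were 13.9 to 21.4 M reads, and this depth limits genes near 5 CPM.

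Counts were filtered by group (filterByExpr, 17115 genes), scaled by TMM and fitted with 1 mean per group in edgeR 4.0.16 (R 4.3.3, quasi-likelihood F-test, Benjamini-Hochberg threshold 0.05 over all genes). For departures the offsets also held each library's median of the gene's chromosome, over genes of mean CPM 5 or more (log2 CPM with a prior count of 2, relative to the gene's mean). All adjusted p-values of genes come from these fits, and those of windows from limma 3.58.1. Arm, level and length were compared by exact permutation tests. On simulated counts of 16750 genes in the adherent departure fit, 76% of 100 genes changed by 0.5 on the log2 scale and 99% of 100 changed by 1 were recovered. Alternatives were DESeq2 1.42.0, limma-voom, other scalings, filters and windows, a replicate block and each library left out.

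Named were EXT1 and EXT2, the 8 largest departures each way per culture among protein-coding genes past the threshold without overlap on the departure scale, the 4 largest alike in both cultures each way, the 6 highest by CPM, up to 3 per list, those nearest the CPM minimum and those of a called window. The chromosome, the genes and the lists were chosen with earlier results of these data known.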

Additional observations from a re-analysis of the deposited data

Results flagged for a closer look

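For the whole chromosome, the median of the difference between cultures (suspension minus adherent) was -0.50. It stands out as the lowest of the 23 chromosomes, and the difference was not tested. The 3 knockdown libraries lay above the wild type when attached and below it in suspension, which also held on chromosomes 13 and 17. For the window from 80 to 90 Mb the difference was 0.27, past the limma test of that difference.

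Among the genes named, 35 had departures that differed between the cultures past the edgeR test of the difference itself. Of these, 21 were lower in suspension than in adherent cells. Genes were named partly for large departures or from the window called for the difference, so neither count is read as a result. Over the 630 genes 14.9% passed this edgeR test, against 15.2% of all genes tested. The differences on the log2 scale were -3.91 for PKP3, -3.19 for PDGFD, -3.16 for PGR, -2.22 for IFITM2, -1.99 for SSH3, -1.95 for IFITM3, -1.78 for SPON1 and -1.78 for ATL3. They were -1.61 for SHANK2, -1.28 for MDK, -1.09 for GAL, -1.01 for ALX4, -0.99 for FADS2, -0.85 for CD44, -0.85 for WNT11, -0.82 for VPS51 and -0.81 for UBE2L6. They were -0.68 for TM7SF2, -0.44 for EXT2, -0.42 for PRSS23 and -0.30 for APLP2.

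Higher in suspension than in adherent cells were the departures of RAB39A by 1.60, FAM111B by 1.08, MAML2 by 0.80, RAB30 by 0.68, SYT9 by 0.66, PCF11 by 0.62, CCND1 by 0.58 and AASDHPPT by 0.55. The differences were 0.51 for RPS28P7, 0.49 for TMEM126A, 0.42 for MRE11, 0.42 for PSMA1, 0.36 for CUL5 and 0.31 for HSPA8. The calls of CUL5, HSPA8, MRE11, TM7SF2, TMEM126A, UBE2L6 and RPS28P7 were each lost in most of the fits that left out a single library. For UBE2L6 the adjusted p was 0.0813 without adherent wild type 1. The calls of CD44, PSMA1 and APLP2 were each lost in some of these fits.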

How the results depend on the processing

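With library totals in place of TMM the medians of the chromosome were 0.32 in adherent cells and -0.19 in suspension. Without taking off the chromosome medians, 335 genes were higher and 8 lower in adherent cells, 2 and 250 in suspension, and 2 and 427 for the difference. The log2 ratios of LDHA (0.020) and DDB2 (0.033) in adherent cells, CCND1 in suspension (-0.010) and the differences of PSMA1 (-0.094), RPS28P7 (-0.0036), TMEM126A (-0.026), MRE11 (-0.10), CUL5 (-0.16) and HSPA8 (-0.20) then had the other sign, because these values hold the chromosome's shift. Fits of only the 6 libraries of a culture called 45 upward and 37 downward departures in adherent cells and 76 and 91 in suspension, and the cause was not tested. With 5 Mb windows 1 window was called in each culture, and with means over genes 3 in suspension. At a mean CPM of 20 or more 0 windows were called for the difference and that from 80 to 90 Mb was 0.084. With means over genes, the highest minus the lowest 210 genes by CPM gave 0.14 in suspension.

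Leaving out each library gave 45 to 111 upward and 40 to 79 downward departures in adherent cells, 12 to 61 and 35 to 73 in suspension, and 21 to 71 and 37 to 95 for the difference. The chromosome medians ranged from 0.27 to 0.31 and from -0.24 to -0.20. Called windows ranged from 0 to 3 in adherent cells, 0 to 1 in suspension and 0 to 2 for the difference, with 0.19 to 0.32 for the window from 80 to 90 Mb. The short-arm minus long-arm difference ranged from -0.036 to 0.011 and from -0.041 to -0.019, that by CPM from -0.16 to -0.095 and from 0.063 to 0.10, and that by length from -0.065 to 0.088 and from 0.069 to 0.15. Of 122 named departures and differences, 62 kept their call under every alternative that was run, including the fit without the chromosome medians, and 60 lost it under 1 or more. Under DESeq2 5 lost it, under limma-voom 7, with no filter on low counts 8 and with the replicate block 9. Without taking off the chromosome medians 35 lost it and 9 had the other sign. Leaving out a library, the number ran from 2 (adherent wild type 3) to 23 (suspension wild type 3). Not all of these losses are given with the genes above.

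The replicate numbers were shared between groups. For same-numbered libraries the correlations over genes were 0.049, -0.11 and 0.13 in adherent cells and 0.34, 0.14 and -0.12 in suspension. Libraries of different numbers gave -0.21 to 0.18 in adherent cells and -0.38 to 0.34 in suspension. The main fits treated the libraries as unpaired, and with 3 libraries per group these correlations cannot exclude a pairing. With a replicate block 72 genes departed upward and 56 downward in adherent cells, and 3 windows were called for the difference. Alternatives for the difference between cultures were added after the results were seen. Genes near 5 CPM, such as PGR with 39 reads in the 3 suspension knockdown libraries, allow only large departures to be called.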

Other observations

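Genes outside those named so far, chosen after their values were seen, filled in the 2 patterns of departure. NLRX1, a mitochondrial NOD-like receptor, averaged 18.5 ± 0.63 CPM in adherent knockdown cells and 9.89 ± 1.3 CPM in adherent wild type, and 14.3 ± 2.1 CPM in suspension knockdown cells and 26.5 ± 0.57 CPM in suspension wild type (SD, n = 3 each), with departures of 0.61 and -0.66 (edgeR adjusted p = 0.000854 and 0.000491). DCHS1, a giant protocadherin, averaged 4.03 ± 0.58 CPM and 2.19 ± 0.27 CPM in adherent knockdown and wild-type cells and 4.97 ± 0.55 CPM and 10.8 ± 0.97 CPM in suspension, with departures of 0.59 and -0.89 (adjusted p = 0.0335 and 0.00093). Both ran ahead of the chromosome in each culture. B4GAT1, a glucuronyltransferase of dystroglycan glycosylation, was below the chromosome in both, at 62.0 ± 1.7 CPM and 66.0 ± 14 CPM in adherent knockdown and wild-type cells and 45.8 ± 4.4 CPM and 83.1 ± 3.2 CPM in suspension (departures -0.38 and -0.63, adjusted p = 0.0158 and 0.000635). PAX6, a homeobox factor of eye and brain that overlaps ELP4 and PAUPAR on the other strand, departed by -0.28 and -0.30 (adjusted p = 0.036 and 0.0443). These genes were not refitted with libraries left out.

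By gene class, 5 of 5 processed pseudogenes departed downward in adherent cells (departures -0.93 to -0.47) and 0 of 5 in suspension (-0.11 to 0.04), where 9.09% and 7.83% of all genes tested were called downward. Pseudogenes of other chromosomes were not set beside them. AC116533.1, the most abundant of them, was at 113, 119 and 119 CPM in adherent knockdown cells against 142, 132 and 171 CPM, and at 151, 185 and 178 CPM in suspension knockdown cells against 217, 217 and 215 CPM. Reads of pseudogenes may come from their parent genes elsewhere in the genome, so that the chromosome they belong to is uncertain.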
